A study of Mus musculus with 12 samples.

Results

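In regenerating mouse liver without Cox10, 284 of 15980 promoter regions (1.78%) lost H3K27ac most deeply, and they carried the names of 207 genes out of 9663 with a promoter region (2.14%). The members were chosen by their measured values. A region entered when the deposited table annotated it as a promoter within 1 kb of a start site, and when the log2 ratio of the mean of 3 knockout libraries plus 1 to the mean of 3 wild-type libraries plus 1 was -2.5 or lower. Their fall in the knockout is therefore a description and carries no test. The leading members belonged to the secreted serpins, the cytochrome P450 enzymes and the enzymes of amino acid breakdown.

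Acetylation of histone H3 at lysine 27 is placed by the acetyltransferases p300 and CBP and marks active promoters and enhancers. In liver, the promoters of genes for plasma proteins and metabolic enzymes are bound by hepatocyte factors such as HNF4, FOXA and C/EBP, and many of them lack the CpG islands found at promoters of genes used in every cell. Cox10 encodes a farnesyltransferase needed to make heme A, the prosthetic group of cytochrome c oxidase in the respiratory chain.

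Both groups were mice with a floxed Cox10 allele. Wild type here means mice given AAV8-GFP, and the knockout (Cox10-/-) means mice given AAV8-Cre, each injected once into the retro-orbital sinus. Every mouse then had a 70% partial hepatectomy 4 weeks later, and whole regenerating liver was taken on day 2. AAV8 infects mainly hepatocytes, while the promoter that drove Cre and the age of the mice were not given in the sources used here. Of 12 libraries, 3 of each genotype were H3K27ac immunoprecipitates, and the 6 input libraries were not used here. Replicates are numbered but not tied to separate animals, so the spread between them may be technical.

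The 6 H3K27ac libraries held between 3282878 and 4187377 reads in the 36387 regions. Levels are normalised reads, that is, reads in a region divided by the size factor of its library, and fold changes are ratios of group means plus 1, which understates the change of weak regions. Size factors ran from 0.730 to 0.782 for wild-type libraries against 1.18 to 1.32 for knockout ones, so dividing by them lowered knockout levels at all regions relative to wild type. The median log2 ratio over all regions was -1.04. In limma's test with Benjamini-Hochberg adjustment, 14749 promoter regions (92.3%) and 31719 of all regions (87.2%) were lower in the knockout at an adjusted p under 0.05, and 202 promoter regions were higher. All 284 members were among those called lower, but the rule used the same contrast and nothing is read from that count. Nor is anything read from the absence of overlap: every knockout library was under every wild-type library at all 284 members, beside 14603 of 15980 promoter regions (91.4%). The same goes for each gene below at which the groups are said to be apart or not to overlap. Centring the libraries on their median regions moved ratios up by about that median, so that regions between about -1.04 and 0 changed sign, and the promoter regions called became 3014 lower and 6737 higher, while all members stayed lower, from -3.46 to -1.46. That the members stayed lower follows from the rule and the size of this shift. Whole liver holds several cell types, and fewer hepatocytes and less acetylation in each hepatocyte cannot be told apart here.

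In the scatter of mean levels in the 2 genotypes, the members form the lower edge of the cloud over most of its range. Ratios ran from -4.34 to -2.503 with a median of -2.77, a 6.84-fold lower level, against a median of -0.86 (1.81-fold) at the 15696 other promoter regions. Only 4 members lay at -4 or below, 19 between -4 and -3.5, 48 between -3.5 and -3, and 213 between -3 and -2.5. The threshold cut through a continuous distribution. Just inside it were Cyp4f15 (-2.51), Sord and Slc30a10 (both -2.5 to 1 decimal), and just outside were Casp16 (-2.4997), Rundc3a (-2.497) and Gfra1 (-2.496).

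**Figure D1:**
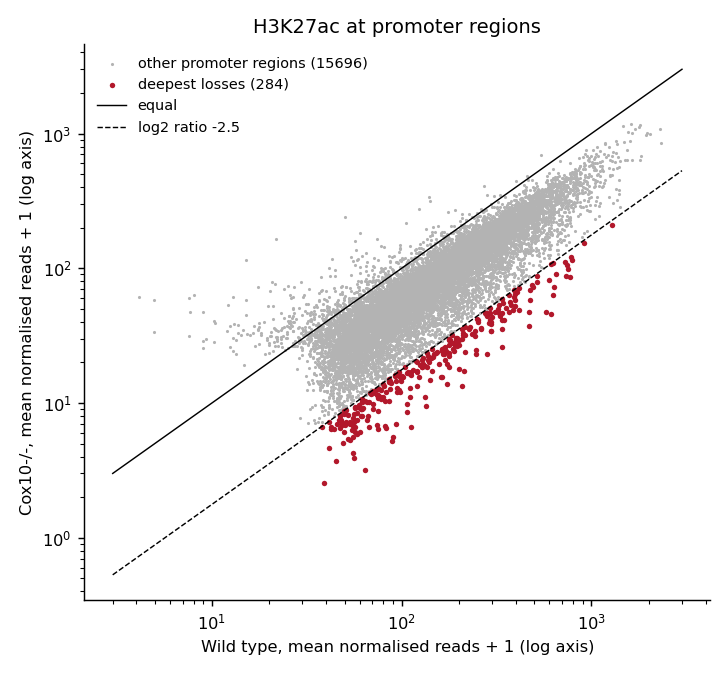
Mean H3K27ac of each promoter region in wild type (horizontal axis) and in the Cox10 knockout (vertical axis), as normalised reads plus 1 on log axes. The 284 members (red) lie under the dashed line of log2 ratio -2.5, below most of the 15696 other promoter regions (grey).

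The members' wild-type levels lay within the range of other promoter regions. Per kb of region, the median member had 251 normalised reads in wild type, beside 266 at other promoter regions, and 103 members (36.3%) were above the median of all promoter regions. In the knockout the medians were 33.9 and 143 normalised reads per kb, and all 284 members were in the lowest 10% of promoter regions, a level the rule selects for. Width was alike, with medians of 507.5 bases for members and 525.5 for the others. Behind the values stood a median of 289.5 reads per member summed over the wild-type libraries and 61 over the knockout libraries. Only 2 members, Cyp3a41b and Sult2a1, had fewer than 10 knockout reads, and a single member, Pdxk-ps, had a knockout library at 0.

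Sequences are given next to 7 start sites. They were taken from the RefSeq promoter table (GRCm38.p6, the assembly of mm10) as the 150 bases before the start site, 5′ to 3′ on the strand of the gene. Capitals mark matches on either strand to 6 motifs: GTTAAT (a homeodomain core), CAAAGTC (an HNF4 core), TTGCNNAA (C/EBP), TGTTTAC and TGTTTGC (forkhead factors, differing in 1 letter) and TATAAA (the TATA box). Cyp3a41b, Cyp3a16, Serpina1e and Prodh2 are shown as the genes with the deepest losses among those with a matched start, and Vtn, Hao1 and Alb as the deepest of those with 3 kinds of match.
Cyp3a41b: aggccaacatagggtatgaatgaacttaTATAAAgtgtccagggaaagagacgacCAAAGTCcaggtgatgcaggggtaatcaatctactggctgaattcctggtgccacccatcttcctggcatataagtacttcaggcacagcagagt
Cyp3a16: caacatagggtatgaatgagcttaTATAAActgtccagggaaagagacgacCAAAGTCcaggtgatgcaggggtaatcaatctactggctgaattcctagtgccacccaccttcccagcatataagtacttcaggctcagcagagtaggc
Serpina1e: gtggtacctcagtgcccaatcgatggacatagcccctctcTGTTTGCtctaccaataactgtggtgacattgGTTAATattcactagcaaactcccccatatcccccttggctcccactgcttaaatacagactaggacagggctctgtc
Prodh2: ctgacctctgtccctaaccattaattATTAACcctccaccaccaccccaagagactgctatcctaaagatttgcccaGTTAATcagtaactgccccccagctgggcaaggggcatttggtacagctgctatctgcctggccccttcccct
Vtn: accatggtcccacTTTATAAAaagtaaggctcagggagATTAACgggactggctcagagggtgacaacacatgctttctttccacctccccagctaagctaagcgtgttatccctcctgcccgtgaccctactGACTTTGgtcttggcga
Hao1: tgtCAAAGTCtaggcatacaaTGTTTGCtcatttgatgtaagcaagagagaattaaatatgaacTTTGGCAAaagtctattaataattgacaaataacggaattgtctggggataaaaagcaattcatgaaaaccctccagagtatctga
Alb: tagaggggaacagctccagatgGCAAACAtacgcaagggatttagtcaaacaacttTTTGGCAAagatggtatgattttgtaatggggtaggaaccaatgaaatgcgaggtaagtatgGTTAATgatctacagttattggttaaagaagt
The stretches lie at chr5:145584731-145584880 (minus strand) for Cyp3a41b, chr5:145469724-145469873 (minus strand) for Cyp3a16, chr12:103956898-103957047 (minus strand) for Serpina1e, chr7:30493508-30493657 (plus strand) for Prodh2, chr11:78498970-78499119 (plus strand) for Vtn, chr2:134554353-134554502 (minus strand) for Hao1 and chr5:90460720-90460869 (plus strand) for Alb. A match is a run of letters and not a shown binding site. The stretches are also not the regions where the loss was read. Those of Cyp3a41b, Cyp3a16, Serpina1e, Prodh2 and Alb lay outside the member regions given for these genes below. Of 145 members with a RefSeq start within 1 kb, 21 (14.5%) covered that start, beside 23.6% of other promoter regions.

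The Serpina1 genes shared more than single motifs. Serpina1a, Serpina1b, Serpina1c and Serpina1e held the same 50 bases, without a mismatch in any of the 6 pairs, with TGTTTGC and GTTAAT starting 32 bases apart (capitals).
Serpina1e stretch: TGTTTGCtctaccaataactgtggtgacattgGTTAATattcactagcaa
This spacing occurred in 4 of 107 member windows, all Serpina1 genes, and in 0 of 7542 others. It was looked for after it had been seen, and the 4 genes are copies of one another, so they do not count as separate cases.

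Serpins, which inhibit serine proteases, held the largest share of members among the lists with over 5 promoter genes: 6 of 13 genes had a member. The share to set beside this list and each list below is 2.14% of all genes. The Serpina1 genes encode forms of alpha-1-antitrypsin, the main inhibitor of neutrophil elastase in plasma. At Serpina1e (chr12:103955887-103956187), normalised reads were 91.8, 84.9 and 86.9 in wild type against 3.4, 4.04 and 5.30 in the knockout, 16.9-fold lower. At Serpina1b (chr12:103773096-103773621) they were 193, 207 and 221 in wild type against 15.3, 10.5 and 11.4 in the knockout, 15.5-fold lower. This region lay 35.2 kb upstream of the RefSeq start of Serpina1b, and the region at that start went from 748 ± 32.9 to 98.6 ± 10.7 (SD, n = 3), a log2 ratio of -2.91. The knockout libraries lay under the wild-type libraries at both genes, with no overlap. Serpina1c fell 12.5-fold, Serpina1a 8.65-fold, and Serpina11 and Serping1, the inhibitor of complement C1, 6.01-fold and 5.90-fold. Serpina1 genes are near-identical copies, so reads may be shared or misplaced among them and the values of single copies are uncertain. Each gene is given by its deepest member region. All 13 serpin genes were lower at their strongest promoter region in limma's test, beside 93.8% of all genes lower and 0.807% higher, and Serpina3n had the least negative ratio (-1.43).

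**Figure D2:**
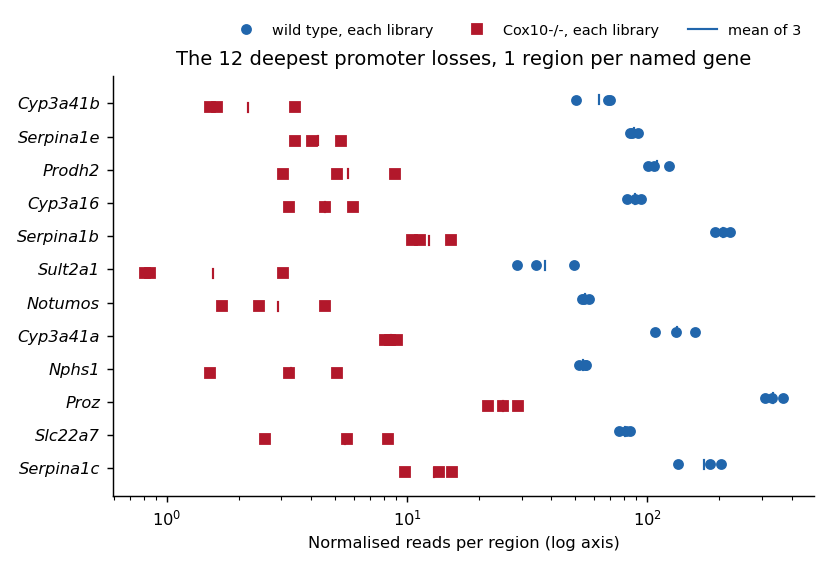
Normalised H3K27ac reads in each library (log axis) at the 12 deepest members, 1 region per named gene, with blue circles for wild type, red squares for the knockout and vertical ticks for the means of 3. The 3 knockout libraries sit to the left of the 3 wild-type libraries at every one of the 12 regions.

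Among proteins of coagulation and fibrinolysis, 5 of 21 genes had a member. Proz, the gene of protein Z, a cofactor in the inhibition of factor Xa, had 310.0, 367 and 332 in wild type against 28.9, 21.8 and 25 in the knockout (chr8:13061040-13062016), 12.9-fold lower. Vtn, the gene of vitronectin, which binds the plasminogen activator inhibitor, had 752, 667 and 792 in wild type against 93.5, 91.2 and 75 in the knockout, 8.43-fold lower, and 3 of its promoter regions were members. The genotypes did not overlap at either gene, which also holds at 91.4% of all promoter regions. F7 and F10, the genes of clotting factors VII and X, fell 6.52-fold and 6.50-fold, and Plg, the gene of plasminogen, 6.39-fold. At their strongest promoter region 21 of 21 genes were called lower, beside 93.8% of all genes, with a median ratio of -1.82, and Fga was least negative (-1.28).

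Complement gave 4 of 21 genes. Mbl2, a mannose-binding lectin that starts the lectin pathway, went from 93.7 ± 8.14 to 12.0 ± 0.936 normalised reads (mean ± SD, n = 3), and C9 and C8b, parts of the membrane attack complex, from 377 ± 24.7 to 52.2 ± 4.29 and from 143 ± 13.8 to 20.6 ± 1.72. Serping1 is the fourth. Folds were 7.27, 7.10 and 6.64, all between the quartiles of all members (6.20 and 7.99), and no knockout library reached a wild-type one. Of the plasma carriers and other secreted proteins, 4 of 33 genes had a member. Saa1, an acute-phase apolipoprotein, had 86.5, 69.8 and 65.2 in wild type against 5.95, 9.68 and 7.58 in the knockout, 8.57-fold lower, and its neighbour Saa4 fell 6.05-fold. Alb, the gene of albumin, entered through the promoter region with fewer reads (chr5:90459474-90460521), with 313, 251 and 297 in wild type against 40.8, 32.3 and 42.4 in the knockout, 7.28-fold lower, while its other region went from 579 ± 32.3 to 174 ± 23.3, a log2 ratio of -1.73. Igfbp2, which binds insulin-like growth factors, fell 7.11-fold. Major urinary proteins, pheromone carriers, gave 2 of 5 genes, Mup3 (8.67-fold) and Mup21 (6.54-fold), another family of near-identical copies.

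Apolipoproteins and lipoprotein assembly gave 2 of 22 genes. Apom, whose product carries sphingosine 1-phosphate in plasma, had 150.3, 138 and 132 in wild type against 16.1, 10.5 and 15.2 in the knockout, 9.45-fold lower, and Anpep, an aminopeptidase, fell 6.49-fold. The groups were well apart at both. Anpep is counted because the list held it, though an aminopeptidase is not an apolipoprotein.

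Cytochrome P450 genes, whose products oxidise drugs, steroids and fatty acids, were the list with the most members: 11 of 42 genes. Cyp3a41b held the deepest loss of all (chr5:145583917-145584164), with 50.6, 69.8 and 69.0 in wild type against 3.4, 1.61 and 1.52 in the knockout, 20.2-fold lower. That value rests on 8 knockout reads in all, and with a pseudocount of 5 its log2 difference in limma's fit was -3.24 in place of -4.37. Cyp3a16 (chr5:145468826-145469168) had 82.5, 94.5 and 89.5 in wild type against 5.95, 3.23 and 4.55 in the knockout, 16.1-fold lower, and Cyp3a41a was 14.0-fold lower. The Cyp3a copies resemble one another closely, as the printed stretches of Cyp3a41b and Cyp3a16 show, and single copies are uncertain for that reason. Cyp2e1, which oxidises ethanol, is a single-copy gene and had 407, 425 and 412 in wild type against 51.8, 53.3 and 37.9 in the knockout, 8.54-fold lower (chr7:140763912-140765305). Cyp2c38 and Cyp4f14 fell 8.47-fold and 8.24-fold. Cyp26a1, which breaks down retinoic acid, had the fewest wild-type reads per region of all members, with 51.9, 31.5 and 28.1 in wild type against 7.65, 3.23 and 6.06 in the knockout. Of the 42 genes, 41 were called lower at the strongest promoter region, beside 93.8% of all genes, and Cyp4a32 had the least negative ratio (-0.39).

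Conjugation and other xenobiotic enzymes gave 8 of 60 genes. Sult2a1, a sulfotransferase of bile acids and steroids, had 34.6, 28.8 and 49.8 in wild type against 0.850, 0.807 and 3.03 in the knockout, 15.1-fold lower on 6 knockout reads in all. With a pseudocount of 5 in place of 1, its log2 difference in limma's fit was -2.69 in place of -3.99. Its copy Sult2a2, which was in no list, fell 12.1-fold. Few reads were left at either region in any knockout library. Ces3a and Ces1d, carboxylesterases, fell 8.17-fold and 6.24-fold, Ugt3a1, a glycosyltransferase, 6.89-fold, and Adh4, an alcohol dehydrogenase, 6.37-fold. The strongest promoter region was called lower at 60 of 60 genes, beside 93.8% of all, with a median ratio of -1.42.

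Enzymes of the urea cycle and of amino acid breakdown gave 8 of 56 genes. Prodh2, a hydroxyproline dehydrogenase, was the deepest, with 124, 107 and 101 in wild type against 5.10, 8.88 and 3.03 in the knockout (chr7:30493021-30493365), 16.7-fold lower. Haao, of the tryptophan to NAD pathway, had 98.4, 97.2 and 120.1 in wild type against 8.50, 6.46 and 7.58 in the knockout, 12.5-fold lower. Otc, ornithine transcarbamylase of the urea cycle, had 99.8, 108 and 123 in wild type against 9.35, 11.3 and 9.85 in the knockout (chrX:10252395-10252871), 9.96-fold lower. Wild-type values were near 100 normalised reads at all 3 genes, and the knockout values stayed under 12. Nags, which makes the activator of the first urea cycle enzyme, had 3 member regions, the deepest 8.69-fold lower. Agxt, which detoxifies glyoxylate, fell 7.67-fold, Upp2, a uridine phosphorylase, 6.73-fold and Uroc1 of histidine breakdown 5.81-fold. Upp2 is counted because the list held it, though uridine is not an amino acid. The member named after Pcca, of propionate breakdown, was 6.73-fold lower but lay 342 kb downstream of the RefSeq start, where the gene had no region. At the strongest promoter region 56 of 56 genes were called lower, beside 93.8% of all, with a median of -1.69, and Hal was least negative (-0.55).

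Gluconeogenesis and glucose handling gave 4 of 31 genes. Pck1, the key enzyme of gluconeogenesis, had 733, 709 and 773 in wild type against 106, 119 and 89.4 in the knockout (chr2:173153141-173155716), 6.98-fold lower. Ppp1r3c, which targets phosphatase 1 to glycogen, fell 8.09-fold, and Pfkfb1, a regulator of glycolysis, 5.75-fold. In the same list Pdk4, an inhibitor of pyruvate dehydrogenase, rose, with a log2 ratio of 1.27 at its strongest promoter region and the only call upward of 31. Over all genes, 0.807% were called higher at that region.

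Bile acid synthesis and transport gave 7 of 28 genes, 3 of which also stand in the conjugation list. Slc10a1, the sodium-dependent bile acid importer, had 652, 646 and 642 in wild type against 91.8, 80.7 and 97.0 in the knockout, 7.13-fold lower (chr12:80966260-80968028). Klb and Fgfr4 encode the coreceptor and receptor through which the gut hormone FGF15 restrains bile acid synthesis. Klb had 186, 156 and 189 in wild type against 24.6, 19.4 and 19.7 in the knockout, 8.01-fold lower, and Fgfr4 had 343, 307 and 321 in wild type against 57.8, 45.2 and 53.8 in the knockout, 6.09-fold lower. The groups were apart at all 3. Akr1d1, the 5-beta-reductase of bile acid synthesis, fell 8.91-fold, Slc27a5, which joins bile acids to coenzyme A, 7.12-fold, and the related Akr1c6 7.31-fold. The member of Akr1c14 was 7.58-fold lower and lay 9.88 kb upstream of the RefSeq start, where the strongest region had a log2 ratio of -1.75.

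Solute carriers and membrane receptors gave 7 of 41 genes. Slc22a7, an organic anion transporter, had 85.1, 76.7 and 81.8 in wild type against 2.55, 5.65 and 8.33 in the knockout, 12.6-fold lower, and Slc22a30 had 192, 223 and 219.8 in wild type against 18.7, 15.3 and 15.2 in the knockout, 12.2-fold lower. The 3 knockout libraries of Slc22a7 differed more among themselves, relative to their mean, than those of Slc22a30. Slc47a1, an exporter of organic cations, fell 7.12-fold with 3 member regions, Egfr, the receptor of epidermal growth factor, 7.28-fold at 1 of 3 promoter regions (the strongest had a ratio of -1.65), Prlr, the prolactin receptor, 5.80-fold, and Slc30a10, a manganese exporter, 5.67-fold.

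Of 42 hepatocyte transcription factors and nuclear receptors, 2 (4.76%) had a member, beside 2.14% of all genes. Klf15, which acts in fasting metabolism, had 189, 156 and 184 in wild type against 27.2, 26.6 and 23.5 in the knockout, 6.63-fold lower, with no overlap between the groups. The strongest promoter region was called lower at 42 of 42, beside 93.8% of all, with a median of -1.23. Of fatty acid oxidation and ketogenesis, 1 of 39 genes (2.56%) had a member, Hao1, the glycolate oxidase of peroxisomes, with 374, 408 and 378 in wild type against 47.6, 50 and 45.5 in the knockout, 7.96-fold lower. In the cell cycle list 2 of 30 genes (6.67%) did: Ccnb2, a mitotic cyclin, with 43.9, 63.0 and 65.2 in wild type against 7.65, 7.26 and 4.55 in the knockout, and Mcm10, a replication factor, 5.86-fold lower. Hao1 is counted above because its list held it, though glycolate is not a fatty acid.

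Several lists had no member: fatty acid, triglyceride and cholesterol synthesis (0 of 45 genes), ATF4 and mitochondrial stress (0 of 25), respiratory chain and ribosome (0 of 59) and housekeeping genes (0 of 19). Their strongest promoter regions were called lower at 43 of 45, 14 of 25, 59 of 59 and 18 of 19 genes, beside 93.8% of all. The medians were -0.98, -0.24, -0.76 and -0.68, beside -0.82 over all 9663 genes. All 4 medians lie above the -1.04 of all regions. With 2.14% of all genes having a member, a count of 0 in lists of this size is near the background, and nothing is read from it. The lists were drawn up with earlier results of these data known, and a share of members describes where the rule fell.

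**Figure D3:**
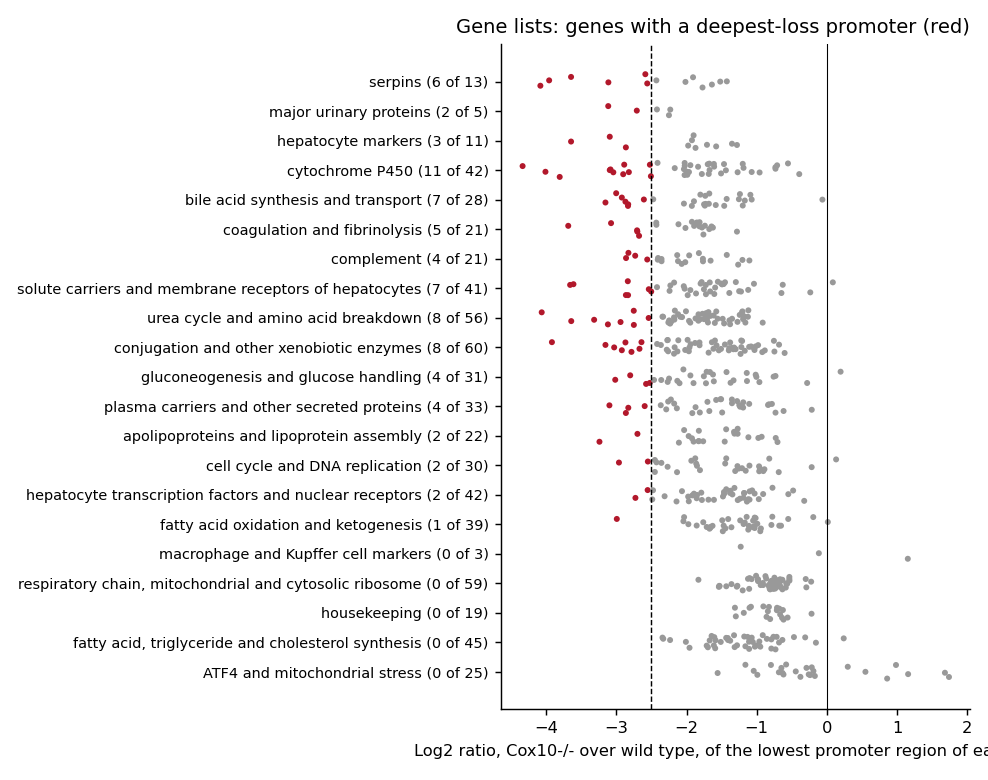
Log2 ratio (knockout over wild type) of the lowest promoter region of each gene, by gene list, with the number of genes with a member of those with a promoter region in brackets. Red points are genes with a member, grey points the others, the dashed line is -2.5 and the solid line 0; vertical scatter is only for display.

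Of the 207 member genes, 69 stood in a list and 138 in none, 26 of these being predicted genes. The deepest named genes outside every list (chosen by the same order of ratios) included Nphs1, the gene of nephrin, which lies beside Prodh2, with 55.9, 52.0 and 55.0 in wild type against 5.10, 3.23 and 1.52 in the knockout, 12.9-fold lower. Notumos, an antisense RNA, had 57.2, 54.8 and 53.7 in wild type against 1.70, 2.42 and 4.55 in the knockout, 14.5-fold lower. H3K27ac has no strand, so the mark at Notumos cannot be assigned to it rather than to an overlapping gene. Both had few reads in every knockout library. Some members outside the lists are liver enzymes or secreted proteins all the same, and were picked out after their values were seen: Car3, a carbonic anhydrase, was 9.86-fold lower, Pon1, the paraoxonase of plasma, 7.99-fold, Gamt of creatine synthesis 8.12-fold and As3mt, an arsenic methyltransferase, 9.02-fold at the weaker of its promoter regions (the stronger had a ratio of -1.30). Tert, the catalytic subunit of telomerase, picked likewise, had 66.5, 71.2 and 80.5 in wild type against 5.10, 5.65 and 6.82 in the knockout, 10.8-fold lower. The member with the most wild-type reads per region was the widest, a region of 3349 bases at Etnk2, an ethanolamine kinase, with 1329, 1212 and 1302 in wild type against 220.1, 215 and 186 in the knockout (chr1:133363710-133367059), 6.16-fold lower.

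A gene could have members and non-members at the same time. Of the 207 genes, 48 had 1 promoter region and 159 had more. All promoter regions were members at 40 of the 159, and at 119 at least 1 was not. At 31 genes the mildest promoter region had a log2 ratio above -1. The promoter region with the most wild-type reads was itself a member at 135 genes. Where it was not, the fold given for a gene is that of its deepest region and exceeds that of its strongest one. Among genes named here, the strongest region had a ratio of -1.96 at Akr1d1, -2.22 at Slc27a5, -2.46 at Upp2, -2.32 at Klf15, -2.41 at Mup21, -2.34 at Anpep, -1.68 at Serping1, -2.38 at Mcm10, -2.12 at Prlr, -2.29 at Pfkfb1, -1.27 at Nrg4 and -1.49 at Ndufaf6. Deepest and strongest regions also differed at genes where both were members. There the strongest region had a ratio of -2.77 at Proz, -3.27 at Sult2a1, -3.64 at Prodh2, -3.63 at Notumos, -3.29 at Haao and -3.59 at Serpina1c. It was -2.82 at Cyp2c38, -2.53 at Gamt, -2.77 at Pon1, -2.57 at Agxt, -2.56 at Mbl2 and -2.63 at F7. The members of Nphs1, Anpep and Mcm10 lay 15.4, 6.32 and 16.6 kb downstream of a RefSeq start without a region. Members repeated within a gene at 60 genes, with 3 or more at 15 genes, and Serpina1b had the most, 5. Those of Serpina1b included regions 33.7, 35.2 and 36.0 kb upstream of its RefSeq start.

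Position relative to the RefSeq start was also compared. Where the table named a gene with a RefSeq start, 145 of 220 members (65.9%) lay within 1 kb of that start, beside 85.5% of other promoter regions, and 44 (20%) lay over 5 kb downstream of it, beside 7.09%. These 44 were annotated by the authors to start sites other than those of the RefSeq table. The comparison was devised, and its example genes picked, after the values had been seen, and it has no test.

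Such members are called internal here, though only distance from the start was measured and not whether they lay within the gene. At 21 of the 35 genes with internal members, another region lay at the RefSeq start, and its loss was milder in every case. Choosing the downstream regions by their ratio favours that direction. The start regions had a median log2 ratio of -0.99 (from -2.35 to -0.16), and 11 of the 21 were above -1. For the internal members, the deepest of each of these genes was taken, and the median was -2.74. Trpc4ap, which encodes an adaptor of ubiquitin ligase, had 194, 203 and 198 in wild type against 17.0, 14.5 and 18.9 in the knockout at its internal region 52.1 kb from the start (chr2:155639814-155640771), 11.2-fold lower, and 233 ± 1.34 in wild type against 153 ± 17.5 in the knockout at the start, a ratio of -0.60. Spop, a substrate adaptor of another ubiquitin ligase, had 367, 349 and 318 in wild type against 53.5, 35.5 and 31.1 in the knockout at its internal region 47.7 kb downstream, 8.43-fold lower, and 136 ± 6.43 in wild type against 61.0 ± 3.41 in the knockout at the start, a ratio of -1.15. The fall was deeper at the downstream region than at the start in both. Rbm19, an RNA-binding protein of ribosome production, had the mildest loss at the start, with ratios of -2.96 downstream against -0.16 at the start, where the level was 39.5 ± 11.2 in wild type against 35.2 ± 5.43 in the knockout (SD, n = 3).

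**Figure D4:**
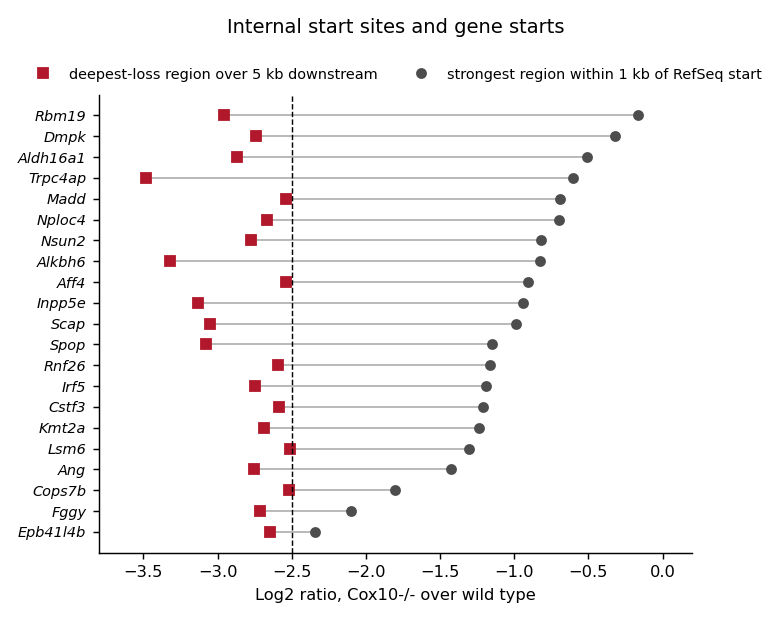
Log2 ratio (knockout over wild type) of the deepest member over 5 kb downstream of the RefSeq start (red squares) and of the strongest promoter region within 1 kb of that start (grey circles) at 21 genes. Each circle lies to the right of its square, and 11 circles lie above -1.

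The other regions of the same genes were described as well. Their 235 other promoter regions, which by the rule lie above -2.5, had a median log2 ratio of -1.73, beside -0.85 at 15461 promoter regions of all other genes. Outside promoters, 580 regions named after 128 of the genes had a median of -2.04, beside -1.26 at 19827 regions of other genes. There 160 of the 580 (27.6%) were at -2.5 or lower, beside 5.17% of regions of other genes and 1184 of all 20407 regions outside promoters (5.8%). Such a region carries the name of its nearest gene, and both sets come from the same libraries, so no test was made. As an example, Cyp3a41b had 7 regions outside promoters, of which 6 were at -2.5 or lower, with a median of -2.68.

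Exceptions went the other way: 11 of the 580 regions (1.90%) had a log2 ratio above 0, beside 11.6% for other genes. Nrg4, which encodes a secreted growth factor, had a member (53.2, 30.1 and 61.3 in wild type against 5.10, 4.84 and 2.27 in the knockout, 9.71-fold lower) and also an intronic region at chr9:55295674-55296281 that was higher in the knockout, at 58.7 ± 1.28 in wild type against 138 ± 11.6 in the knockout (SD, n = 3), a ratio of 1.22. Ndufaf6, an assembly factor of respiratory complex I, had a member (-2.74) and an intergenic region at 117 ± 8.46 against 214 ± 8.72, a ratio of 0.86. These were picked out after their values were seen.

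**Figure D5:**
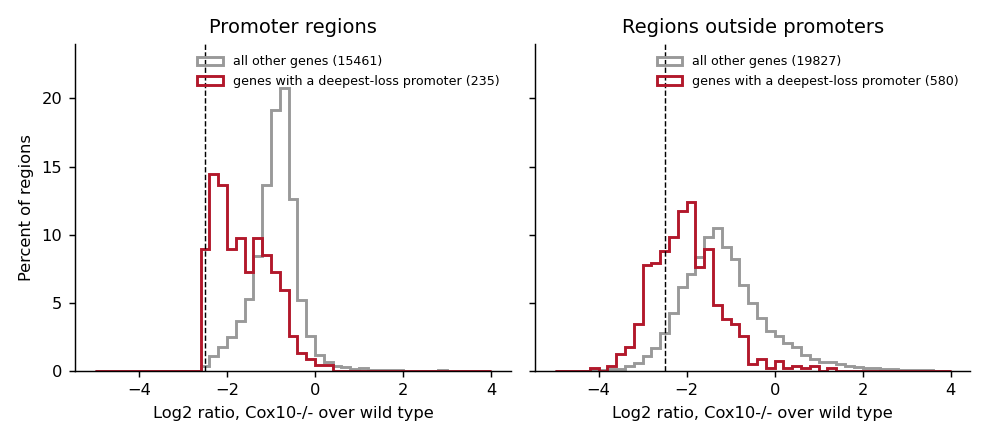
Percent of regions (vertical axis) by log2 ratio of knockout over wild type (horizontal axis, bins of equal width) for the 207 genes with a member (red) and all other genes (grey), members left out, at promoter regions (left) and outside promoters (right). The red curves lie to the left of the grey ones, with medians of -1.73 against -0.85 and of -2.04 against -1.26.

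Some members lay near one another. A member of another gene stood within 100 kb of 42 members (14.8%), beside 4.63% of other promoter regions. Joined by gaps of at most 100 kb, 44 members of 28 genes formed 11 blocks. The widest was the Serpina1 cluster on chromosome 12 (chr12:103734619-103990700, 256.1 kb), where 15 of 17 promoter regions were members and the other two had ratios of -2.40 and -2.11. On chromosome 8 F7, F10 and Proz stood within 36.8 kb (chr8:13025227-13062016) with 6 members of 8 promoter regions. Mup3, Gm12909 and Mup21 formed a block on chromosome 4, and Nphs1 with Prodh2, Saa4 with Saa1 and Klf15 with Aldh1l1 formed smaller ones. The members named after Aldh1l1 lay 63.3 and 64.4 kb upstream of its RefSeq start, where the strongest region had a ratio of -2.29. Neighbours that are copies of one gene are not separate cases. By chromosome, the share of promoter regions that were members ran from 0.370% on chromosome 14 to 3.25% on chromosome 19.

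Base composition could be read only for some members. A RefSeq start within 1 kb was matched for 145 of 284 members (51.1%), under the 80% needed, so a comparison over the members is void. For the 107 windows of 300 bases that were matched, the values stand beside 7542 windows of other promoter regions as a description. GC content had a median of 51% against 62%, and the observed over expected CpG ratio 0.272 against 0.799. TATAAA was in 19.6% of member windows and 6.63% of all windows, GTTAAT in 17.8% and 4.28%, CAAAGTC in 14.0% and 3.79%, TTGCNNAA in 21.5% and 8.37%, TGTTTAC in 8.41% and 2.67%, and TGTTTGC in 8.41% and 3.62%. GGGCGG, the GC box, was in 27.1% of member windows and 67.4% of all, and CCGGAAG, an ETS site, in 4.67% and 19.6%. Gene copies count as separate windows in these shares and in the CpG split below. The 9 member windows with TGTTTGC and the 19 with GTTAAT include the 4 Serpina1 copies. The 15 with CAAAGTC include Cyp3a41b, Cyp3a16, Cyp3a41a and Cyp3a11.

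The other 9 motifs searched on both strands were CCAAT (40.2% of member windows and 38.1% of all), GCGCATG of NRF1 (0.935% and 7.84%), AAGATGG of YY1 (5.61% and 7.44%), the E-box CACGTG (3.74% and 10.5%), ATCAAT of ONECUT factors (11.2% and 3.61%), AAGGTCA of nuclear receptors (12.1% and 3.14%), TGACGT of CREB (4.67% and 12.5%), TTCNNNGAA of STATs (7.48% and 6.81%) and TGANTCA of AP-1 (9.35% and 4.60%). CpG content moves with these shares. Within windows of CpG ratio under 0.4, a split made after the data were seen, GTTAAT was in 15 of 64 member windows (23.4%) and 10.7% of others, TTGCNNAA in 31.2% and 15.1%, and TATAAA in 20.3% and 14.3%. Other motifs went the other way there, with TGANTCA in 7.81% and 12.0% and TTCNNNGAA in 6.25% and 10.8%, and in windows of 0.4 or more TTGCNNAA was in 6.98% and 7.39%.

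Replicates were close at the members in wild type and less so in the knockout. The median coefficient of variation over 3 libraries was 8.51% for wild type, 18.3% for the knockout and 10.5% for the knockout at other promoter regions. In the same order, reads summed over the 3 libraries had medians of 289.5, 61 and 275 per region. Fewer reads widen this coefficient through counting alone, and that part was not tested. The third knockout library was lowest of its genotype at 141 members and the first was highest at 130. Medians over the members were 17.8, 16.1 and 15.9 normalised reads in the knockout libraries, and other promoter regions kept that order, at 77.3, 75.1 and 68.2.

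Markers of the cell types of liver were summed over all their regions. The sums below stand beside those of all 36387 regions, 5.34e+06 to 5.51e+06 in wild type against 2.49e+06 to 2.81e+06 in the knockout. Of 12 hepatocyte markers 11 had a region, and their summed level over 112 regions was 21950 to 22720 in the wild-type libraries, against 6591 to 7564 without Cox10. Alb, Cyp2e1 and Serpina1c had members among them. Macrophage markers had regions at 4 of 16 genes, with sums of 3519 to 3689 in wild type against 2246 to 2584. Their promoter regions went different ways. Cd14 rose at its strongest one (140 ± 1.26 to 314 ± 28.3, ratio 1.15), while Cx3cr1 fell (205 ± 16.7 to 86.8 ± 11.8, ratio -1.23). The promoter regions of Cd68 had ratios of -0.11, 0.50 and 0.61, with the most wild-type reads at the first. Endothelial markers had regions at 5 of 12 genes (sums 699.9 to 784.9 and 443.2 to 553.2), stellate markers at 1 of 12 (66.46 to 105.1 and 31.82 to 49.23), biliary markers at 4 of 9 (1527 to 1593 and 691.7 to 789.5) and lymphocyte and blood markers at 3 of 19 (462.7 to 509.5 and 175 to 197.7). The remaining markers had no region in the table. No member belonged to a list other than that of hepatocytes among these, and the part of cell makeup in the members' loss was not tested.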

How the data were processed

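The members and gene lists were chosen with earlier results of these data known. The authors deposited 1 table of normalised reads per region (a signal) for 3 wild-type and 3 knockout H3K27ac libraries of mouse liver, together with log2 fold changes, raw and adjusted p-values, a test statistic (a score) and an annotation for each region. Multiplied by a size factor of its library, each value gave whole reads (100% within 0.01 reads). The origin of these factors was not given in the sources used here, though the labels' protocols mention spike-in chromatin. The submitters' processing notes list mm10 as the build and name BWA 0.7.5, MACS and deepTools 3.5.0, with no roles for them. Of 36446 rows, 59 repeated positions were dropped. Chromosome 16 was not analysed here, and the values of some members are not reported here.

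Log2(value + 1) was fitted with limma 3.58.1 in R 4.3.3, with trend, 3 against 3 libraries, Benjamini-Hochberg over all 36387 regions and no block. The limma step was tested on simulated data. Recovered reads were also tested with edgeR 4.0.16 and with DESeq2 1.42.0. Coordinates are as in the deposited table, whose counting base is not stated. Genes were named by rank of ratio, list and start-site rules, and others are said to have been chosen after their values were seen. Start sites and sequences came from RefSeq (GRCm38.p6), by symbol, then synonym. P-values measure only the spread between these libraries, which may be technical.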

Additional observations from a re-analysis of the deposited data

How the results depend on the processing

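The count of 284 members depended on the scale. A pseudocount of 5 left 162, and centring each library on its median region left 23, since the centring takes the library shift out of every ratio; centred ratios of the members ran from -3.46 to -1.46, with a median of -1.76. Centring also moved the promoter regions called lower and higher to 3014 and 6737, all regions to 11800 and 12224, and the medians of other regions of the member genes to -0.68 at promoters and -0.997 outside them, where a pseudocount of 5 gave -1.88. Leaving out each library in turn gave 264 to 338 promoters meeting the rule, of which 243 to 274 were among the 284. Of 199 alternative values, 190 kept their direction and their side of the threshold or stayed within the tolerance set for counts and medians, and all 108 for named members kept direction, though not size: with a pseudocount of 5 the log2 difference of Sult2a1 went from -3.99 to -2.69 and that of Cyp3a41b from -4.37 to -3.24. These named members are the deepest by the rule, which used the same contrast. Nothing is read from their kept direction, or from its part in the 190. The same holds for the counts of members called lower under each setting, which are also among the 190. edgeR called 31769 regions lower and 1608 higher, DESeq2 30860 and 1299. Replicate numbers did not pair the libraries (correlations of deviations -0.000917, 0.00737 and 0.0054); with the replicate block 31755 regions were lower and 1634 higher, 14770 and 205 at promoters, and all 284 members were called lower. The knockout values rest on a median of 61 reads per member summed over 3 libraries, and 2 members had fewer than 10.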
